A study of Capra hircus with 9 samples.

Results

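The extracellular matrix and its remodelling were followed through 42 named genes, set here by symbol as a list of collagens, basement membrane proteins, elastic fibre proteins, proteoglycans, matricellular proteins, metalloproteinases with their inhibitors, and a pair of stromal cell genes. Of these 42, 41 were found among the 18383 genes of the files, 40 were listed in all 9 libraries and passed the filter on low values, and COL7A1 was not analysed here. MMP1, an interstitial collagenase, was listed in 8 of the 9 libraries at 0.0611 to 0.365 FPKM and was too low to test. FPKM is a level scaled to transcript length and to the library's fragment total. The libraries were made from rumen epithelium of goats aged 4 months, with 3 libraries from goats on the HC diet, 3 on the MC diet and 3 on the LC diet. Total RNA of frozen tissue was sequenced, the diets were 3 kinds of concentrate feed, and their letters are used as the labels give them. Whether each library is its own animal is not in the labels, and p-values therefore measure only the spread between these samples. The values carry no read counts, so the depth behind each value is unknown.

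The matrix holds tissue together and stores signals for its cells. Fibroblasts and smooth muscle cells lay down the fibrillar collagens, elastic fibres and small proteoglycans of the lamina propria, while a sheet of laminins, collagen IV, nidogen and perlecan, the basement membrane, lies under the epithelium and around vessels and muscle cells. Matrix metalloproteinases cut these proteins and are held in check by the TIMP inhibitors. In the rumen, the papillae carry a keratinised epithelium over a core of connective tissue with vessels, and smooth muscle lies beneath.

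The libraries differed widely in marker RNA of smooth muscle. Of the 17 smooth muscle markers, all of which were listed and tested, the summed level was 153 to 198 FPKM in HC, 1503 to 4653 FPKM in MC and, in LC, 3249 FPKM in LC1, 1719 FPKM in LC2 and 80.9 FPKM in LC3. None of the defining markers, ACTA2, MYH11 and TAGLN, was at 0. MYH11, the smooth muscle myosin, ran from 4.39 to 6.89 FPKM in HC and from 86.0 to 293 FPKM in MC, and was 253 FPKM in LC1 and 2.41 FPKM in LC3. TAGLN was 45.0 to 55.9 FPKM in HC, 248 to 741 FPKM in MC, and 430, 247 and 16.4 FPKM in LC1 to LC3. ACTA2 differed, with 25.1 to 32.4 FPKM in HC, 14.8 to 31.0 FPKM in MC, and 23.0, 19.7 and 9.19 FPKM in LC1 to LC3. In HC minus MC the log2 change was positive for ACTA2 and negative for the other 16 markers. KRT5, the basal keratin that marks the labelled epithelium, was high in every library, at 2696 to 4803 FPKM. The 12 fibroblast markers summed to 207 to 247 FPKM in HC, 260 to 294 FPKM in MC and 296 to 366 FPKM in LC, a sum dominated by GSN, and 10 of 12 endothelial markers were listed and summed to 16.3 to 27.6 FPKM in HC, 18.4 to 43.1 FPKM in MC and 23.3 to 66.2 FPKM in LC. In bulk tissue, fewer cells of a type and less RNA per cell cannot be told apart. The median of all genes was lower by 0.10 on the log2 scale in HC than in both other diets, a shift that every HC contrast below carries.

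Every LC library, LC3 included, lay above every HC and MC library in MMP14, COL5A2, LAMA5, LAMB1 and PDGFRB, and below them in MMP9. LC3 lay above every HC and MC library for 5 of the 40 tested genes, against 28.5% of all genes. Across the 40 tested genes, 7 passed the test in HC minus LC (1 higher and 6 lower in HC), 9 in MC minus LC (1 higher and 8 lower in MC) and 4 in HC minus MC (4 higher and 0 lower in HC, with 3 lower at an unadjusted p under 0.05). The test was limma's moderated test on log2(FPKM + 1) with Benjamini-Hochberg adjustment over 11668 genes and a threshold of 0.05. Over all tested genes the background was 25.2% called in HC minus LC (7.79% higher and 17.4% lower), 33.4% in MC minus LC (16.2% higher and 17.1% lower) and 25% in HC minus MC (8% higher and 17% lower). With median-of-ratios scaling the calls over all genes split into 1494 higher and 1329 lower in HC minus LC, against 909 and 2030 as deposited, and into 1513 and 1319 in HC minus MC, against 933 and 1984. The matrix genes were thus called about as often as other genes or less. In the F test among the 3 diets 10 of 40 matrix genes were called, against a background of 45.2%. LC had the highest mean for 35 of the 40, against 4794 of 11668 genes overall. The median log2 change of the matrix genes was -0.65 in HC minus LC, -0.42 in MC minus LC and -0.18 in HC minus MC, beside -0.10, -0.0067 and -0.10 for all genes. HC minus LC and MC minus LC share the LC libraries.

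**Figure D1:**
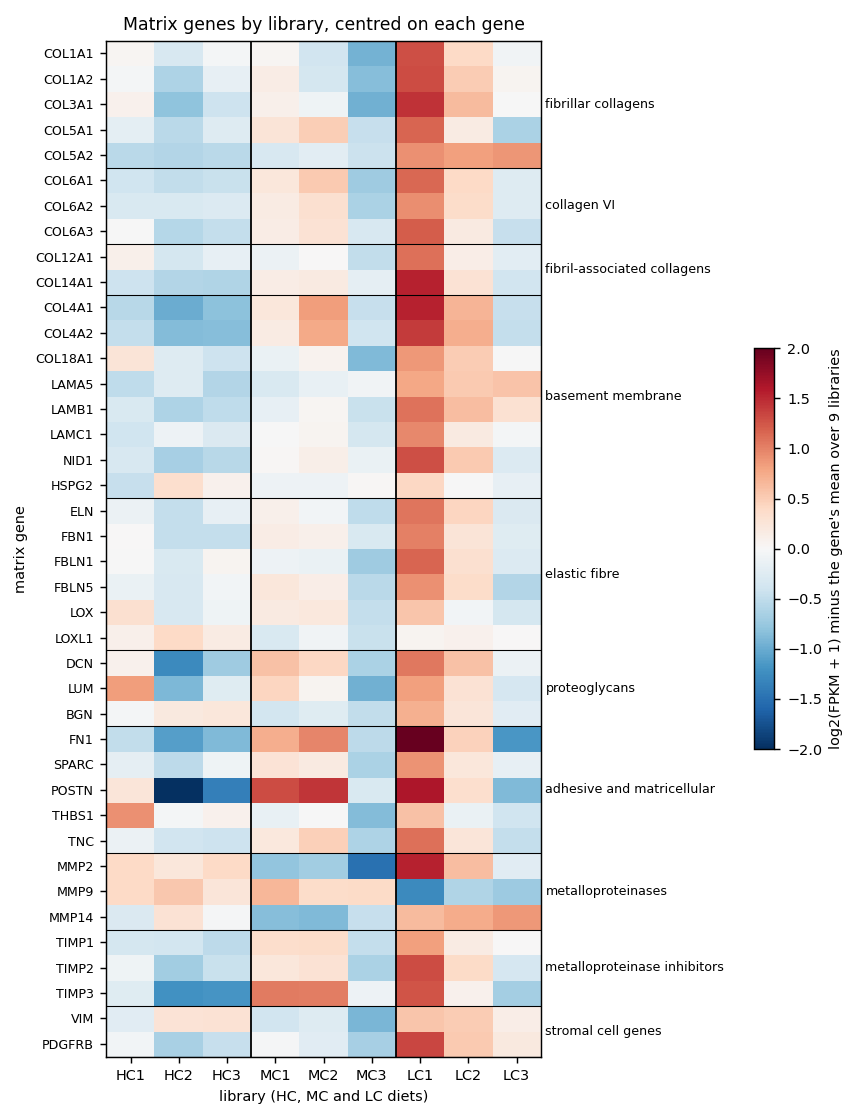
Heat map of the 40 tested matrix genes (rows, grouped by role) in the 9 libraries (columns, HC, MC and LC), coloured by log2(FPKM + 1) minus the gene's own mean over the libraries, with colours saturating at 2 above or below. LC1 is the highest column for most rows, while COL5A2, LAMA5 and MMP14 are high in all 3 LC libraries and MMP9 is low in them.

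Among the metalloproteinases, MMP14, MMP9 and MMP2 each passed the test in at least 1 contrast. MMP14, a membrane-anchored collagenase that also activates pro-MMP2 (chromosome 10, 21501072 to 21509375), stood at 36.1, 54.2 and 43.4 FPKM in HC1 to HC3, at 24.1, 23.6 and 32.1 FPKM in MC1 to MC3, and at 69.0, 74.7 and 81.3 FPKM in LC1 to LC3. The 3 diets did not overlap, with LC highest, HC between and MC lowest. It fell in HC minus LC (44.6 ± 9.09 FPKM in HC and 75.0 ± 6.14 FPKM in LC, SD, n = 3 each, log2 change -0.75 ± 0.17 SE, limma adjusted p = 0.00763) and in MC minus LC (26.6 ± 4.78 FPKM in MC, log2 change -1.47 ± 0.17, limma adjusted p = 7.70e-05). HC stood above MC by 0.72 ± 0.17 on the log2 scale (limma adjusted p = 0.0106), a call that was lost without MC2 (adjusted p = 0.0522) and with the smooth muscle mean as covariate (adjusted p = 0.216). Within LC, MMP14 was lowest in the library with the most smooth muscle, LC1, and highest in LC3.

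MMP9, a gelatinase released by leukocytes and epithelial cells (chromosome 13, 72803465 to 72810867), was the only tested matrix gene called higher in HC than in LC or higher in MC than in LC. It stood at 4.60, 5.21 and 4.00 FPKM in HC1 to HC3 and at 5.75, 4.50 and 4.54 FPKM in MC1 to MC3, but at 0.755, 1.80 and 1.58 FPKM in LC1 to LC3. HC and MC overlapped each other and lay wholly above LC. The log2 change was 1.26 ± 0.18 in HC minus LC (limma adjusted p = 5.23e-04) and 1.34 ± 0.18 in MC minus LC (limma adjusted p = 2.15e-04), and -0.080 ± 0.18 in HC minus MC (adjusted p = 0.772). Of 8 neutrophil markers 5 were listed. Their summed level was 1.25 to 1.79 FPKM in HC, 1.37 to 2.03 FPKM in MC and 2.07 to 2.79 FPKM in LC. Their part in the MMP9 result was not tested beyond these levels. Of the defining neutrophil markers, CSF3R was not listed in 4 libraries and reached at most 0.136 FPKM in the rest, and CXCR1 was not listed in 3 and reached at most 0.0634 FPKM. CXCR2 ran from 0.941 to 2.004 FPKM over all libraries.

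MMP2, the gelatinase of connective tissue cells that MMP14 activates (chromosome 18, 23171986 to 23200053), followed another order. It stood at 12.3, 10.8 and 12.4 FPKM in HC1 to HC3, at 4.90, 5.29 and 2.62 FPKM in MC1 to MC3, and at 28.6, 14.6 and 7.69 FPKM in LC1 to LC3. Every MC library lay below every HC and LC library. The smooth muscle markers summed to 3359, 4653 and 1503 FPKM in MC1 to MC3 and to 3249 FPKM in LC1. Their mean log2(FPKM + 1) was 6.39, 6.76 and 5.22 in MC1 to MC3 and 6.61 in LC1. The part of smooth muscle in this order was not tested. MMP2 was lower in MC than in LC (log2 change -1.63 ± 0.41, limma adjusted p = 0.0161) and higher in HC than in MC (log2 change 1.33 ± 0.41, limma adjusted p = 0.0464), while HC and LC overlapped (-0.31 ± 0.41, adjusted p = 0.619). The MC minus LC call was lost without LC2 (adjusted p = 0.0511) and with only MC and LC in the fit (adjusted p = 0.0633). With LC3 alone for LC the MC minus LC change was -0.76. The HC minus MC call lay close to the threshold and was lost when any of HC1, HC2, HC3, MC1, MC2, MC3 or LC2 was left out (adjusted p = 0.0723 to 0.131). It was also lost after quantile normalization (adjusted p = 0.0536).

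Of the metalloproteinase inhibitors 0 of 3 passed limma's test in any contrast, with 1 at an unadjusted p under 0.05 in HC minus LC and 1 in HC minus MC. Each was ordered LC1, LC2, LC3 from high to low. TIMP3, the inhibitor that stays bound to the matrix, ranged from 3.91 to 8.59 FPKM in HC, from 9.61 to 22.3 FPKM in MC and from 6.13 to 26.2 FPKM in LC, with no overlap between HC and MC (log2 change -1.53 ± 0.56, limma adjusted p = 0.0850). This HC minus MC change passed once LC1 (adjusted p = 0.0246) or LC3 (adjusted p = 0.0415) was left out. TIMP1 was 6.39 to 7.28 FPKM in HC and 9.63 to 17.7 FPKM in LC without overlap (log2 change -0.75 ± 0.25, limma adjusted p = 0.0528), and it passed without MC3 (adjusted p = 0.0157) or LC3 (adjusted p = 0.0327). TIMP1 shares its locus in the files with ARAF and SYN1, and TIMP3 with SYN3, so their values are uncertain. TIMP2, which both inhibits MMP2 and takes part in its activation, ranged from 4.33 to 7.16 FPKM in HC, from 4.55 to 9.54 FPKM in MC and from 5.83 to 20.4 FPKM in LC.

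**Figure D2:**
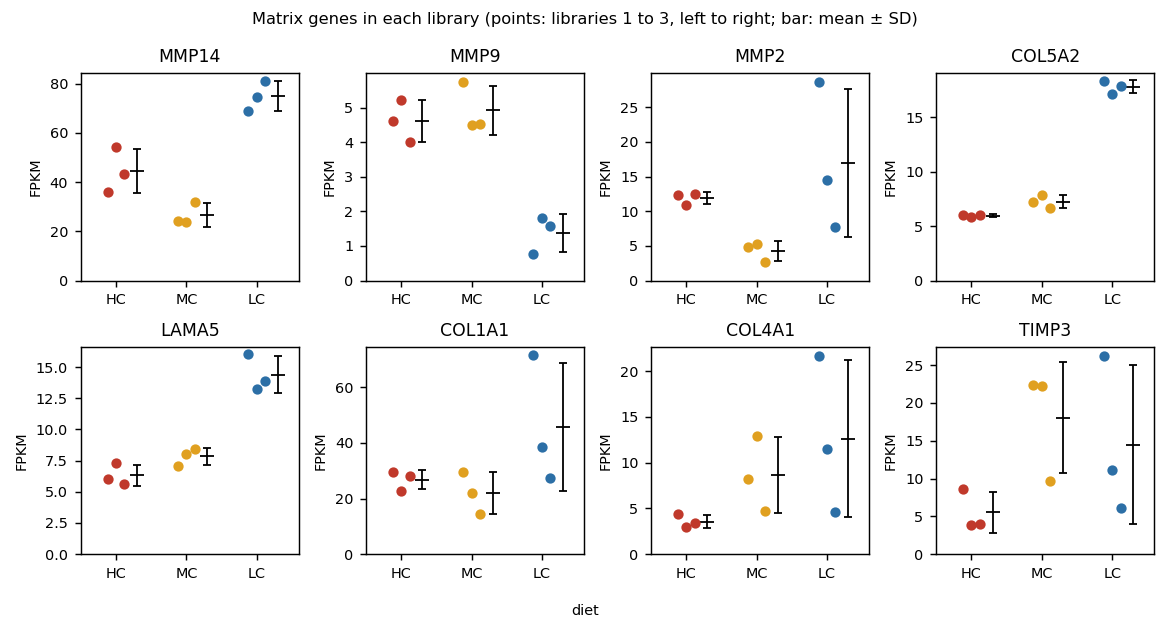
FPKM (y axis, from 0) of 8 matrix genes in each library of HC, MC and LC, with the mean and SD of each diet as a bar beside the points. MMP14, COL5A2 and LAMA5 lie higher in all LC libraries and MMP9 lower, MMP2 is lowest in MC, and COL1A1, COL4A1 and TIMP3 spread widely within LC, with LC1 on top.

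Among the fibrillar collagens, which form the tensile fibres of connective tissue, only COL5A2 was called. COL5A2, a chain of the collagen V that starts fibrils and limits their width (chromosome 2, 7215450 to 7364195), stood at 6.04, 5.83 and 6.02 FPKM in HC1 to HC3, at 7.22, 7.85 and 6.65 FPKM in MC1 to MC3, and at 18.3, 17.2 and 17.9 FPKM in LC1 to LC3. The 3 LC libraries were close together and lay far above the others. It fell in HC minus LC (log2 change -1.43 ± 0.10, limma adjusted p = 6.54e-06) and in MC minus LC (-1.19 ± 0.10, limma adjusted p = 1.35e-05), and the difference of -0.24 ± 0.10 in HC minus MC did not pass (adjusted p = 0.112). Its partner chain COL5A1 showed no such pattern, with 1.83 to 2.61 FPKM in HC, 2.02 to 4.83 FPKM in MC, and 8.22, 3.64 and 1.66 FPKM in LC1 to LC3.

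The collagen I and III genes, which make up most of the fibres of connective tissue, passed in no contrast. COL1A1 stood at 29.5, 22.9 and 28.0 FPKM in HC1 to HC3, at 29.6, 21.8 and 14.5 FPKM in MC1 to MC3, and at 71.7, 38.4 and 27.5 FPKM in LC1 to LC3. LC3 lay within the range of HC, and only LC1 and LC2 lay above both other diets. The log2 change was -0.65 ± 0.34 in HC minus LC (limma adjusted p = 0.193) and -0.97 ± 0.34 in MC minus LC (limma adjusted p = 0.0554). COL3A1, which lies beside COL5A2 (chromosome 2, 7381162 to 7421416), had 31.4 to 58.8 FPKM in HC, 28.0 to 59.2 FPKM in MC and 153, 86.0 and 55.3 FPKM in LC1 to LC3, so the neighbouring genes differed in how they varied within LC. COL1A2, the other collagen I chain, had 18.8 to 28.7 FPKM in HC and 30.7 to 74.1 FPKM in LC without overlap (log2 change -0.90 ± 0.34, limma adjusted p = 0.0827). Without LC3 the HC minus LC change of COL1A2 passed (-1.18, adjusted p = 0.0282), as did that of COL3A1 (-1.41, adjusted p = 0.0283).

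Collagen VI, a network of beaded filaments around cells, and the fibril-associated collagens XII and XIV gave 0 of 5 calls in each contrast by limma, with 1 at an unadjusted p under 0.05, COL14A1 in HC minus LC. COL6A1 was 9.16 to 9.88 FPKM in HC, 7.73 to 19.5 FPKM in MC and 30.8, 17.8 and 10.998 FPKM in LC1 to LC3. COL6A3 was 0.654 to 1.43 FPKM in HC, 0.949 to 1.996 FPKM in MC and 4.68, 1.76 and 0.771 FPKM in LC1 to LC3. COL14A1 had 0.325 to 0.508 FPKM in HC, 0.784 to 1.29 FPKM in MC and 4.88, 1.46 and 0.551 FPKM in LC1 to LC3, and HC lay below both other diets in every library. Its HC minus LC change (log2 -1.02 ± 0.39, limma adjusted p = 0.0866) passed without LC3 (adjusted p = 0.00701), and its HC minus MC change (-0.59 ± 0.39, adjusted p = 0.296) passed without LC1 (adjusted p = 0.0336).

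In the basement membrane, 3 of the 8 tested genes fell in HC minus LC and 2 in MC minus LC. By limma 0 rose, also at an unadjusted p under 0.05. LAMA5, a laminin alpha chain of epithelial basement membranes (chromosome 13, 52868879 to 52925862), stood at 6.03, 7.28 and 5.62 FPKM in HC1 to HC3, at 7.10, 8.01 and 8.43 FPKM in MC1 to MC3, and at 16.1, 13.3 and 13.8 FPKM in LC1 to LC3. All LC libraries lay above all others, by a log2 change of -1.08 ± 0.13 in HC minus LC (limma adjusted p = 1.59e-04) and -0.80 ± 0.13 in MC minus LC (limma adjusted p = 6.82e-04). LAMB1, the laminin beta chain found with it in many basement membranes (chromosome 4, 46558173 to 46633937), stood at 3.90, 2.95 and 3.26 FPKM in HC1 to HC3, at 4.42, 5.21 and 3.45 FPKM in MC1 to MC3, and at 11.9, 8.27 and 6.52 FPKM in LC1 to LC3. It also lay above both other diets in every LC library, and within LC it was ordered LC1, LC2, LC3. The log2 change was -1.15 ± 0.19 in HC minus LC (limma adjusted p = 0.00149) and -0.86 ± 0.19 in MC minus LC (limma adjusted p = 0.00519), of which the second was lost with LC3 alone for LC (-0.50, adjusted p = 0.128).

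NID1, which links the laminin and collagen IV networks (chromosome 28, 6888727 to 6962843), stood at 1.11, 0.665 and 0.799 FPKM in HC1 to HC3, at 1.67, 1.86 and 1.42 FPKM in MC1 to MC3, and at 5.48, 2.80 and 1.19 FPKM in LC1 to LC3. HC lay below both other diets, but LC3 stood only just above HC1. Its fall in HC minus LC (log2 change -1.03 ± 0.31, limma adjusted p = 0.0363) was lost when any of HC1, HC2, HC3, MC1, MC2, LC1 or LC2 was left out (adjusted p = 0.0514 to 0.116). It was also lost after median-of-ratios scaling (adjusted p = 0.0540), after quantile normalization (adjusted p = 0.0635) and with only HC and LC in the fit (adjusted p = 0.0748). With the smooth muscle covariate the change was -0.47 (adjusted p = 0.118), and with LC3 alone for LC it was -0.24 (adjusted p = 0.493). COL4A1 and COL4A2, the main collagen IV chains, are neighbours on chromosome 12. COL4A1 stood at 4.33, 2.94 and 3.398 FPKM in HC1 to HC3, at 8.16, 13.0 and 4.68 FPKM in MC1 to MC3, and at 21.7, 11.5 and 4.65 FPKM in LC1 to LC3. Here HC lay below both other diets, which overlapped, and neither the HC minus LC change (log2 -1.37 ± 0.52, limma adjusted p = 0.0948) nor the HC minus MC change (-0.99 ± 0.52, adjusted p = 0.199) passed. Without LC3 the HC minus LC change passed for COL4A1 (adjusted p = 0.00949) and COL4A2 (adjusted p = 0.00492). HSPG2, the heparan sulphate proteoglycan perlecan, overlapped among all diets, at 3.76 to 7.23 FPKM in HC, 5.08 to 5.66 FPKM in MC and 4.86 to 7.73 FPKM in LC. COL18A1 and LAMC1 passed in no contrast, with adjusted p from 0.0655 to 0.674.

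Elastic fibre genes gave 1 call in all. LOXL1, which crosslinks elastin (chromosome 21, 32354504 to 32379504), stood at 11.4, 14.2 and 11.997 FPKM in HC1 to HC3, at 8.38, 10.0 and 7.50 FPKM in MC1 to MC3, and at 11.1, 11.2 and 10.6 FPKM in LC1 to LC3. The diets did not overlap, with HC highest and MC lowest, and HC was higher than MC (log2 change 0.49 ± 0.13, limma adjusted p = 0.0167). This call was lost without HC2, MC1 or MC3 (adjusted p = 0.0575 to 0.0657) and with the smooth muscle covariate (0.61, adjusted p = 0.0679). ELN, the elastin precursor itself, was 5.14 to 6.91 FPKM in HC, 4.996 to 8.17 FPKM in MC and 16.99, 10.5 and 5.95 FPKM in LC1 to LC3. It passed in no contrast over all libraries, and was lower in HC than in LC without LC3 (-1.004, adjusted p = 0.00949). FBN1, FBLN1, FBLN5 and LOX overlapped between diets in every contrast, with adjusted p of 0.114 to 0.995.

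Of the small leucine-rich proteoglycans, BGN fell in MC minus LC. BGN, biglycan, stood at 8.61, 10.3 and 10.6 FPKM in HC1 to HC3, at 6.68, 7.40 and 6.03 FPKM in MC1 to MC3, and at 15.2, 10.7 and 7.49 FPKM in LC1 to LC3. MC lay below both other diets, with MC2 just under LC3, and the MC minus LC change was -0.61 ± 0.20 on the log2 scale (limma adjusted p = 0.0327). The call was lost without MC1, MC2, MC3, LC1 or LC2 (adjusted p = 0.0534 to 0.1004) and with only MC and LC in the fit (adjusted p = 0.0621). With LC3 alone for LC the MC minus LC change was -0.14. The HC minus MC change (0.49 ± 0.20, adjusted p = 0.0863) passed without LC1 (adjusted p = 0.0233) or LC3 (adjusted p = 0.0321). DCN, decorin, which binds collagen fibrils, ranged from 22.1 to 57.9 FPKM in HC, from 35.0 to 82.5 FPKM in MC and from 50.0 to 115 FPKM in LC, and LUM, lumican, from 26.7 to 91.4 FPKM in HC, from 25.4 to 68.3 FPKM in MC and from 39.9 to 89.8 FPKM in LC. The highest LUM value was that of HC1, and neither gene passed in any contrast.

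The adhesive and matricellular genes gave 0 of 5 calls in each contrast by limma, and also 0 at an unadjusted p under 0.05. FN1, fibronectin, stood at 3.82, 2.17 and 2.68 FPKM in HC1 to HC3, at 10.3, 12.4 and 3.74 FPKM in MC1 to MC3, and at 26.2, 8.36 and 2.03 FPKM in LC1 to LC3. LC1 and LC3 were the highest and the lowest of all 9 libraries, and the HC minus LC change of -1.26 ± 0.80 (limma adjusted p = 0.292) passed without LC3 (-2.06, adjusted p = 0.0372). POSTN, periostin, a matricellular protein of fibroblasts, stood at 9.35, 0.691 and 2.39 FPKM in HC1 to HC3, at 20.6, 22.5 and 6.09 FPKM in MC1 to MC3, and at 25.8, 10.0 and 3.75 FPKM in LC1 to LC3. SPARC, a collagen-binding glycoprotein, was abundant in all libraries, at 65.7 to 89.7 FPKM in HC, 60.6 to 115 FPKM in MC and 84.3 to 178 FPKM in LC. THBS1 was highest in HC1 (8.42 FPKM) and TNC in LC1 (4.25 FPKM), and their diets overlapped.

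Both stromal cell genes were lower in MC than in LC. PDGFRB, the platelet-derived growth factor receptor of pericytes and fibroblasts (chromosome 7, 57714352 to 57748726), stood at 1.60, 0.722 and 0.962 FPKM in HC1 to HC3, at 1.66, 1.31 and 0.707 FPKM in MC1 to MC3, and at 5.84, 2.87 and 2.09 FPKM in LC1 to LC3. All LC libraries lay above all others, with log2 changes of -1.07 ± 0.28 in HC minus LC (limma adjusted p = 0.0202) and -0.99 ± 0.28 in MC minus LC (limma adjusted p = 0.0221). The first call was lost without HC2 (adjusted p = 0.0766) or HC3 (adjusted p = 0.0705), the second without MC3 (adjusted p = 0.0768). Both were lost with LC3 alone (adjusted p = 0.232 and 0.256), and the first also with the smooth muscle covariate (-0.65, adjusted p = 0.0797). VIM, vimentin, an intermediate filament of mesenchymal cells and leukocytes (chromosome 13, 30388146 to 30395383), stood at 127, 181 and 183 FPKM in HC1 to HC3, at 114, 125 and 78.9 FPKM in MC1 to MC3, and at 220, 212 and 164 FPKM in LC1 to LC3. MC lay below both other diets, with log2 changes of -0.91 ± 0.21 in MC minus LC (limma adjusted p = 0.00610) and 0.63 ± 0.21 in HC minus MC (limma adjusted p = 0.0474). The HC minus MC call was lost when any of HC2, HC3, MC1, MC2, MC3 or LC2 was left out (adjusted p = 0.0551 to 0.163), after quantile normalization (adjusted p = 0.101) and without a filter on low values (adjusted p = 0.0568), and the MC minus LC call with LC3 alone for LC (adjusted p = 0.129).

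Without overlap between libraries, 2 matrix genes were higher and 13 lower in HC than in LC (background 13.3% and 27.4%), 1 higher and 9 lower in MC than in LC (23.8% and 23.4%), and 5 higher and 6 lower in HC than in MC (14.7% and 31.6%). Besides the called genes, COL1A2, COL6A1, COL6A2, COL14A1, COL4A1, LAMC1 and TIMP1 were among the 13 lower in HC than in LC, and LOXL1 was among the 2 higher. In HC minus MC the 6 lower were COL5A2, COL14A1, COL4A1, COL4A2, NID1 and TIMP3, of which collagen IV and NID1 belong to the basement membrane.

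To separate genes that follow muscle content from those that follow diet, the level in LC1 was divided by that in LC3, which differed most in smooth muscle markers among the LC libraries. In 30 of the 40 tested genes LC1 was at least 2 times LC3, against 6.61% of all tested genes, and in 35 of 40 the LC libraries were ordered LC1, LC2, LC3 from high to low, against 17.9% of all genes. MC3, the MC library with the least smooth muscle, was the lowest of the MC libraries in 36 of 40, against 30.3% of all genes. The shares within LC describe values that made the split, while that of MC3 uses no LC value. No test was made of any of these shares. FN1 had the highest ratio (12.9), followed by COL14A1 (8.86), POSTN (6.88), COL6A3 (6.07) and TNC (5.598). Just inside the threshold stood BGN (2.02) and SPARC (2.11), and just outside COL18A1 (1.98) and TIMP1 (1.84). The lowest ratios were those of VIM (1.34), LAMA5 (1.16), LOXL1 (1.05), COL5A2 (1.02), MMP14 (0.849) and MMP9 (0.478).

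**Figure D3:**
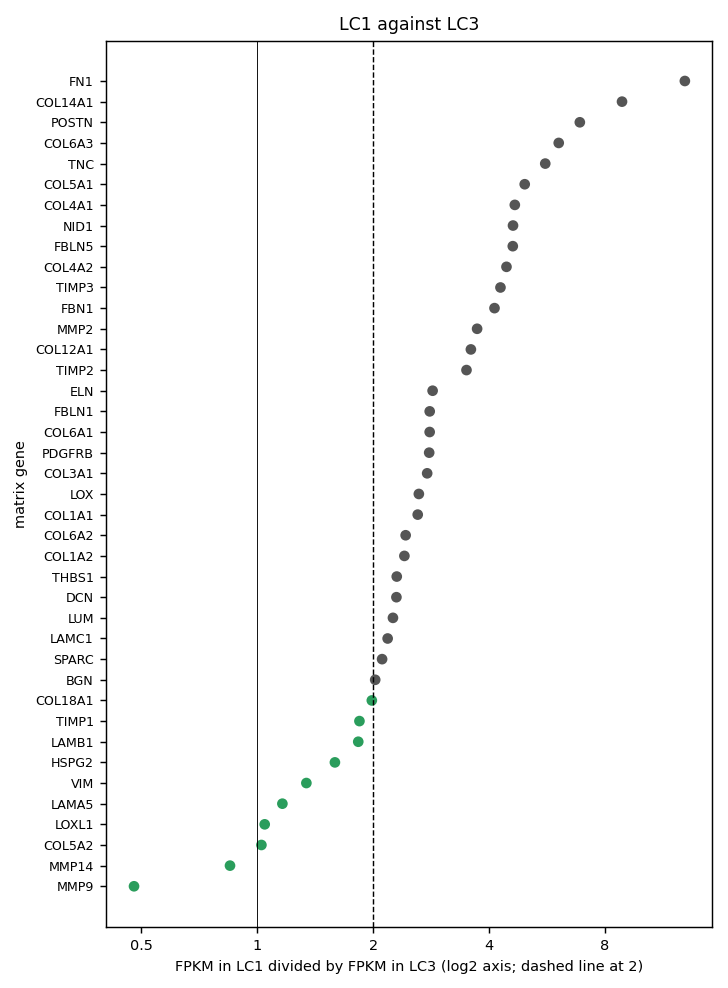
FPKM in LC1 divided by FPKM in LC3 (x axis, log2 scale) for each of the 40 tested matrix genes (y axis, ordered by the ratio). The 30 grey points lie at or beyond the dashed line at 2, up to 12.9 for FN1, and the 10 green points below it end with MMP14 (0.849) and MMP9 (0.478).

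Of the 30 genes above that ratio, 2 were called in HC minus LC (NID1 and PDGFRB), 3 in MC minus LC (BGN, MMP2 and PDGFRB) and 1 in HC minus MC (MMP2). Of the 10 genes below it, 5 were called in HC minus LC (COL5A2, LAMA5, LAMB1, MMP14 and MMP9), 6 in MC minus LC (the same 5 and VIM) and 3 in HC minus MC (LOXL1, MMP14 and VIM). The ratio itself bears on these counts, since a gene with a wide spread within LC is less readily called against LC. Over all genes, 14.8% of those with a ratio of at least 2 and 25.9% of the others were called in HC minus LC, 10.6% and 35% in MC minus LC, and 16.6% and 25.6% in HC minus MC. LC3, which held less smooth muscle marker RNA than any HC library, lay above every HC library for 13 of the 40 genes, against 46.6% of all genes. It lay above every HC and every MC library for COL5A2, LAMA5, LAMB1, MMP14 and PDGFRB, 5 of 40, against 28.5% of all genes.

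Across diets, the order of the smooth muscle sum was not that of COL1A1. The MC libraries held a summed smooth muscle level of 1503 to 4653 FPKM, yet COL1A1 in MC (14.5 to 29.6 FPKM) overlapped with COL1A1 in HC (22.9 to 29.5 FPKM), whose libraries held 153 to 198 FPKM of those markers. COL4A1 differed from COL1A1 in this, with every MC library above every HC library. Of the listed markers, 10 of 10 of endothelium, 9 of 12 of fibroblasts and 4 of 6 of pericytes were ordered LC1, LC2, LC3 from high to low, as were 17 of 17 of smooth muscle. PECAM1, of endothelium, had 1.65 to 3.72 FPKM in HC, 2.94 to 7.13 FPKM in MC, and 15.4, 7.27 and 4.51 FPKM in LC1 to LC3. VWF, also of endothelium, had 3.59 to 4.23 FPKM in HC, 3.04 to 4.89 FPKM in MC, and 12.2, 8.33 and 6.05 FPKM in LC1 to LC3. The fibroblast marker PDGFRA had 5.29, 1.85 and 1.21 FPKM in LC1 to LC3, and THY1 had 8.25, 5.99 and 3.197 FPKM. DPT, also of fibroblasts, had 52.5, 58.8 and 40.1 FPKM and did not keep that order. LC1 over LC3 was 4.36 for PDGFRA and 2.58 for THY1, but 1.31 for DPT, 1.21 for C1S, 1.22 for C1R and 1.10 for GSN. In HC minus LC 7 of 11 tested fibroblast markers and 1 of 9 tested endothelial markers fell, against 17.4% of all genes. In MC minus LC 4 of 11 and 1 of 9 fell, against 17.1%. The part of these cell types in the collagen values was not tested.

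**Figure D4:**
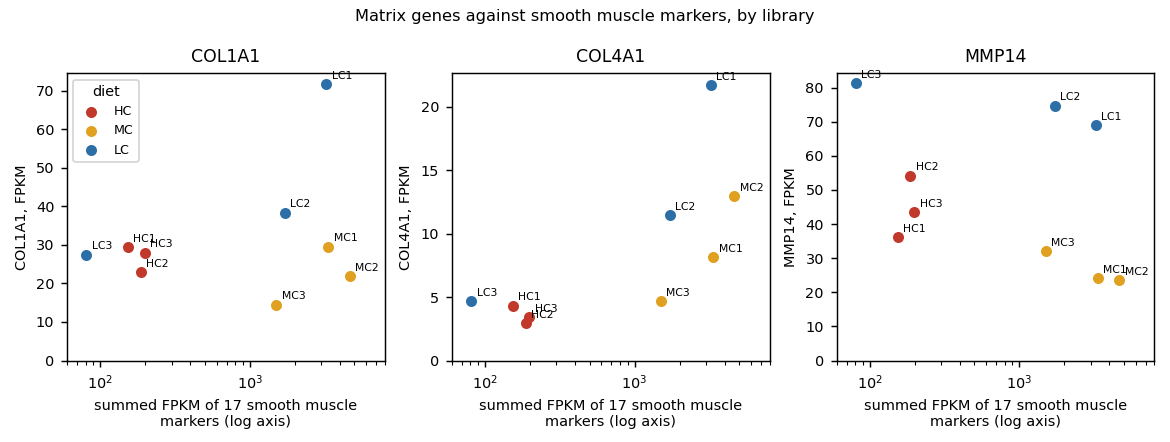
FPKM of COL1A1, COL4A1 and MMP14 (y axes) against the summed FPKM of 17 smooth muscle markers (x axis, log scale), with a point for each library of HC, MC and LC. COL1A1 is high only in LC1 and LC2, COL4A1 is lowest in HC, and MMP14 is highest in LC3, which has the lowest smooth muscle sum (80.9 FPKM).

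The calls were then compared with and without the libraries rich in muscle. COL5A2, LAMA5, MMP14 and MMP9 kept their calls in both contrasts with LC under all 20 alternatives tried, and LAMB1 did so in HC minus LC. With LC3 alone for LC the log2 change in HC minus LC was -1.44 for COL5A2 (adjusted p = 8.49e-04), -1.03 for LAMA5 (adjusted p = 0.00822), -0.87 for MMP14 (adjusted p = 0.0454) and 1.11 for MMP9 (adjusted p = 0.00804). That setting takes the lone LC library to vary like the other diets. It called 5 matrix genes in HC minus LC (11.8% of all genes) and 4 in MC minus LC (19.9% of all genes), and the median change of the 40 genes was -0.068 in HC minus LC and 0.12 in MC minus LC. Without LC3 instead, 23 were called in HC minus LC (22 lower), against 22.5% of all genes. In MC minus LC 19 were called (18 lower), against 28.5%, and in HC minus MC 7, against 25.3%. With the mean of the smooth muscle markers as a covariate, 5 were called in HC minus LC, against 18.1% of all genes, 31 in MC minus LC (30 lower, 1 higher), against 33.9%, and 7 in HC minus MC (7 higher), against 10.3%. COL1A1 was among those gained, with a change of -1.35 in MC minus LC (adjusted p = 7.38e-04). The covariate, a mean of log2(FPKM + 1), was 2.64 to 2.89 in HC and 5.22 to 6.76 in MC, without overlap. Within LC it ran from 1.94 in LC3 to 6.61 in LC1, the widest spread of the 3 diets. Between HC and MC it cannot be told apart from diet, and the adjusted changes lean on the spread within LC.

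**Figure D5:**
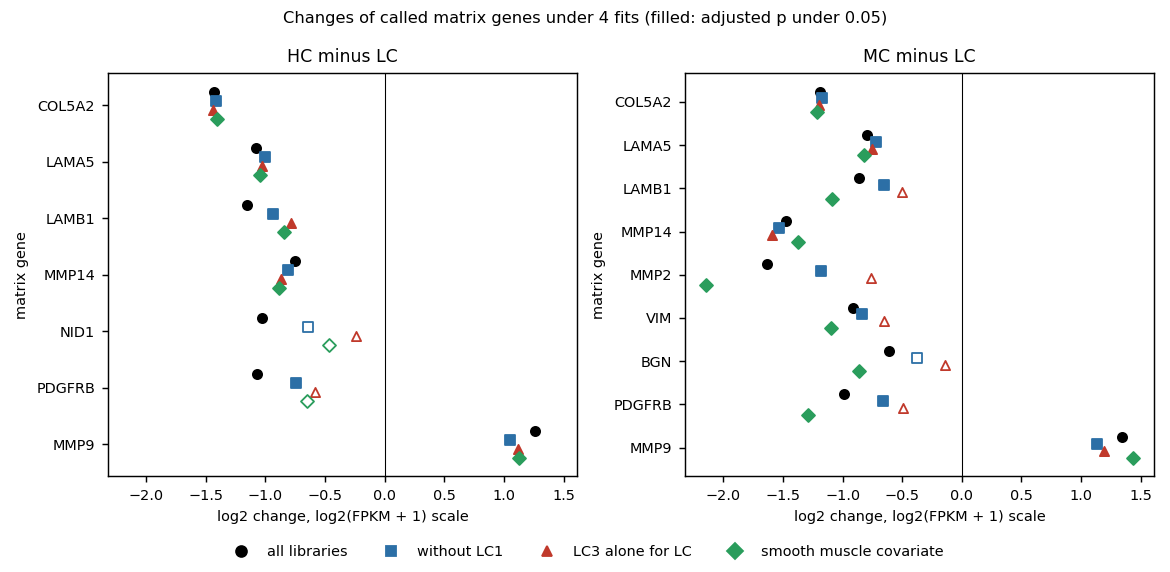
Log2 change (x axis, on the log2(FPKM + 1) scale) of the matrix genes called in HC minus LC (left) and in MC minus LC (right) from the fit of all libraries, without LC1, with LC3 alone for LC, and with the smooth muscle mean as a covariate; filled marks passed an adjusted p of 0.05. COL5A2, LAMA5, MMP14 and MMP9 stay filled throughout. With LC3 alone, NID1 has an open mark on the left, PDGFRB on both sides, and LAMB1, MMP2, BGN and VIM on the right.

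The summed levels of immune cell and pericyte markers were highest in LC, as were COL5A2, LAMA5 and MMP14. Of 7 T cell markers 6 were listed, with a summed level of 1.10 to 1.99 FPKM in HC, 0.544 to 1.51 FPKM in MC and 8.50 to 10.5 FPKM in LC. The 3 of them that were tested, CD3D, CD3E and CD3G, reached 1 FPKM in LC alone, which is how they passed the filter, so their tests are not used. Of 9 macrophage markers 7 were listed and summed to 27.6 to 35.9 FPKM in HC, 10.8 to 20.8 FPKM in MC and 39.5 to 52.0 FPKM in LC, the same order of diets as MMP14. Of 6 tested, 2 fell in HC minus LC, against 17.4% of all genes, and 5 in MC minus LC, against 17.1%. The pericyte markers, 6 of 6 listed, summed to 30.1 to 37.7 FPKM in HC, 31.8 to 46.8 FPKM in MC and 54.5 to 75.4 FPKM in LC. CSPG4 and NOTCH3 weighed most in that sum, at 24.3 and 23.7 FPKM in LC3. Of the 5 pericyte markers tested, 3 had a negative log2 change in MC minus LC and 2 a positive one, MCAM (0.67) and KCNJ8 (0.28). The part of immune cells and pericytes in these results was not tested. The 7 listed of 8 basal epithelial markers summed to 4505 to 6542 FPKM in HC, 5333 to 6222 FPKM in MC and 4205 to 6486 FPKM in LC, so the diets overlapped.

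The other genes of matrix biology were followed in 5 lists, with errors again as SD over 3 libraries. Beside the counts of these lists, 7.79% of all genes were called higher and 17.4% lower in HC minus LC. The shares were 16.2% and 17.1% in MC minus LC, and 8% and 17% in HC minus MC. Of 7 tested further collagens, 4 fell and 0 rose in HC minus LC, 5 fell and 0 rose in MC minus LC, and 0 of 7 passed limma's test in HC minus MC, with 1 lower at an unadjusted p under 0.05. COL16A1, a fibril-associated collagen, was 19.8 ± 3.25 FPKM in HC, 21.8 ± 3.13 FPKM in MC and 34.4 ± 0.569 FPKM in LC, and fell in both contrasts with LC (log2 change -0.78, limma adjusted p = 0.00262, and -0.65, adjusted p = 0.00489). COL23A1, a transmembrane collagen, was 0.417 ± 0.131 FPKM in HC, 0.636 ± 0.154 FPKM in MC and 1.47 ± 0.238 FPKM in LC. It is counted among those that fell, but it passed the filter through LC alone, so its test is not used. COL4A6, a collagen IV chain of epithelial basement membranes that shares its locus with COL4A5, fell to 1.27 ± 0.164 FPKM in MC, against 2.89 ± 0.0802 FPKM in LC (log2 change -0.78, limma adjusted p = 0.00102).

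Among 30 tested glycoproteins and proteoglycans, 1 rose and 11 fell in HC minus LC, 0 rose and 6 fell in MC minus LC, and 8 rose and 4 fell in HC minus MC. TGFBI, an adhesive protein induced by transforming growth factor beta, was 18.4 ± 0.416 FPKM in HC, 11.9 ± 1.84 FPKM in MC and 45.3 ± 1.54 FPKM in LC (log2 change -1.26 in HC minus LC, limma adjusted p = 4.00e-05, and -1.85 in MC minus LC, adjusted p = 1.97e-06). AGRN, agrin, a basement membrane proteoglycan whose locus is shared with other genes, was 12.4 ± 2.33 FPKM in HC, 8.596 ± 1.07 FPKM in MC and 20.4 ± 0.874 FPKM in LC (log2 change -1.16 in MC minus LC, limma adjusted p = 1.16e-04). FBN2, a fibrillin, was 2.17 ± 0.406 FPKM in HC, 0.146 ± 0.0124 FPKM in MC and 0.453 ± 0.137 FPKM in LC. It is counted among those that rose in both HC contrasts, but it passed the filter through HC alone, so its test is not used. THBS4, a thrombospondin of muscle and tendon, was 17.5 ± 1.61 FPKM in HC, 4.81 ± 1.31 FPKM in MC and 16.7 ± 6.46 FPKM in LC (log2 change 1.69 in HC minus MC, limma adjusted p = 0.00256).

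Among 13 tested enzymes of collagen synthesis and crosslinking, 0 rose and 3 fell in HC minus LC, 2 rose and 4 fell in MC minus LC, and 0 rose and 3 fell in HC minus MC, where 3 were higher at an unadjusted p under 0.05. PCOLCE2, an enhancer of procollagen processing, was 0.979 ± 0.343 FPKM in HC, 5.63 ± 0.845 FPKM in MC and 4.23 ± 1.73 FPKM in LC (log2 change -1.36 in HC minus LC, limma adjusted p = 0.00245, and -1.75 in HC minus MC, adjusted p = 7.32e-04). PLOD1, a lysyl hydroxylase of collagen, fell to 4.61 ± 0.760 FPKM in HC and 4.71 ± 0.753 FPKM in MC, against 7.78 ± 0.262 FPKM in LC (limma adjusted p = 0.00512 and 0.00422). COLGALT1, which adds galactose to collagen, stood at 13.2 ± 1.38 FPKM in HC, 21.4 ± 1.58 FPKM in MC and 13.4 ± 1.65 FPKM in LC, and rose in MC minus LC (log2 change 0.64, limma adjusted p = 0.00253).

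Of 20 tested further proteases and inhibitors, 2 rose and 8 fell in HC minus LC, 2 rose and 6 fell in MC minus LC, and 3 rose and 5 fell in HC minus MC. SERPINE2, counted as lower in both contrasts with LC, passed the filter through LC alone. PLAU, the urokinase that activates plasminogen, fell to 1.13 ± 0.298 FPKM in HC, against 6.19 ± 0.813 FPKM in LC (log2 change -1.76, limma adjusted p = 3.70e-05). MMP23B fell to 0.686 ± 0.335 FPKM in HC, against 3.10 ± 0.718 FPKM in LC (log2 change -1.28, limma adjusted p = 4.02e-04). CTSL, the lysosomal protease cathepsin L, fell to 2.25 ± 0.598 FPKM in MC, against 8.74 ± 1.89 FPKM in LC (log2 change -1.58, limma adjusted p = 5.24e-05). MMP28, epilysin, a metalloproteinase of keratinocytes, was 14.4 ± 2.83 FPKM in HC, 26.4 ± 1.66 FPKM in MC and 11.6 ± 1.31 FPKM in LC, and rose in MC minus LC (log2 change 1.13, limma adjusted p = 1.94e-04). MMP15, another membrane-type metalloproteinase, was 23.2 ± 3.18 FPKM in HC, 12.2 ± 0.847 FPKM in MC and 19.3 ± 2.603 FPKM in LC, and rose in HC minus MC (log2 change 0.87, limma adjusted p = 0.00135). With MMP14, MMP9 and MMP2, the metalloproteinases thus did not share a single order of diets.

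Among 19 tested matrix receptors, 1 rose and 2 fell in HC minus LC, 3 rose and 3 fell in MC minus LC, and 2 rose and 4 fell in HC minus MC. ITGA6, the integrin alpha chain that binds laminin in hemidesmosomes, fell to 14.8 ± 1.003 FPKM in HC, against 25.8 ± 3.30 FPKM in LC (log2 change -0.75, limma adjusted p = 0.00155). ITGB5, an integrin beta chain that pairs with ITGAV, rose to 26.7 ± 3.15 FPKM in HC, against 19.5 ± 0.753 FPKM in LC (log2 change 0.43, limma adjusted p = 0.0284). ITGA3, whose protein also binds laminins, stood at 4.69 ± 0.947 FPKM in HC, 10.5 ± 0.325 FPKM in MC and 4.33 ± 0.380 FPKM in LC, and rose in MC minus LC (log2 change 1.11, limma adjusted p = 9.98e-05). ITGB8, an integrin chain that activates latent transforming growth factor beta, stood at 10.3 ± 0.927 FPKM in HC, 5.54 ± 0.325 FPKM in MC and 12.4 ± 1.03 FPKM in LC, and fell in MC minus LC (log2 change -1.04, limma adjusted p = 5.73e-05).

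Likeness of pattern was measured as the root mean square distance between genes over the 9 libraries, on the log2(FPKM + 1) scale and after each gene was centred on its own mean. The 5 tested genes nearest to MMP14 were KIAA1217 (0.110), FAT2 (0.142), AGRN (0.146), LOC102181292 (0.151) and CERS1 (0.159), where the spread of MMP14 about its own mean was 0.629. Among those nearest to MMP9, with a spread of 0.646, were LOC102172432 (0.140), DFFA (0.158), LOC102171967 (0.161) and MCM5 (0.166). For COL1A1, with a spread of 0.574, COL1A2 (0.133) and FBLN1 (0.154) came first, both matrix genes, followed by SLC15A3 (0.166), RCOR3 (0.213) and C1QTNF7 (0.217).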

How the data were processed

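Each of the 9 deposited files holds 1 FPKM value per gene of 1 library, made by the authors. The submitters' processing notes name Cufflinks 2.2.1 and Bowtie 1.2.0, without their settings. That the values are FPKM follows from Cufflinks and their range, and what the per-million total covers is unknown. The build is not given in the sources used here. File starts count from 0, as checked on mitochondrial genes, so 1 was added, and chromosomes come from a goat RefSeq table (assembly ARS1.2) that held all 42 symbols. The HC files also hold 11468 to 12038 empty lines each, and lines named by spreadsheet day numbers (18 to 21 in each MC and LC file, 0 in HC) were left out. Repeated lines of CD81 and TPT1 were summed.

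Genes listed in all libraries with at least 1 FPKM in at least 3 were tested (11668), and 211 that passed the level but were not listed everywhere were left out. The test used log2(FPKM + 1), on which changes of low genes are understated. limma 3.58.1 in R 4.3.3 fitted 1 mean for each diet, with robust, trended moderation. Adjustment was over all tested genes for each contrast. Tested on simulated data for HC minus LC over 11668 genes, the fit recovered 0% of 200 genes changed by 0.5 log2, 77.5% at 1 and 98% at 2, with 0, 9 and 11 false calls, and called 0 where none was changed. In the data 25.2% of genes were called in that contrast. With so few genes changed, the adjustment is stricter in the simulation, so the shares recovered need not hold for the data. The members, lists, tests and alternatives were chosen with earlier results of these data known. Values by library are given for genes past the test in at least 1 contrast and for MMP14 and MMP9, and for other members, most by range. Those of COL1A1, COL3A1, COL5A1, COL4A1, COL6A1, COL6A3, COL14A1, ELN, FN1 and POSTN were chosen after their values were seen. From each further list up to 2 called genes per contrast with the smallest adjusted p are named. Figures used Python 3.11.15 with matplotlib 3.10.9, pandas 2.3.3 and numpy 2.4.6, and library weights used statmod 1.5.0. A gene among those nearest in pattern to MMP9 is not reported here.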

Additional observations from a re-analysis of the deposited data

How the results depend on the processing

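Over 20 alternatives, 9 of the 20 calls of matrix genes held under each, those of COL5A2, LAMA5, MMP14 and MMP9 in both contrasts with LC and of LAMB1 in HC minus LC. The counts of called matrix genes (7 in HC minus LC, 9 in MC minus LC, 4 in HC minus MC, 10 in the F test) moved under several settings. Leaving out each library in turn gave 5 to 23, 7 to 19, 1 to 7 and 7 to 30. The shares of all genes called were then 15.2% to 24.1%, 24.3% to 34.7%, 13.9% to 34.8% and 34.2% to 50.6%. With library weights HC minus LC gave 21, HC minus MC 21 and the F test 26, where 50.5%, 56.5% and 74.7% of all genes were called. The smooth muscle covariate did not overlap between HC and MC. It gave 31 in MC minus LC (33.9% of all genes), 30 in the F test (38.8%) and 7 in HC minus MC (10.3%). It turned ELN (0.84, adjusted p = 0.0326) and FBLN5 (0.98, adjusted p = 0.0169) in HC minus MC to called and higher in HC, where their changes over all libraries were -0.095 and -0.11 and passed no test. Fits of only the 2 diets compared gave 11 in HC minus MC, where 31.3% of all genes were called. Genes not listed kept at 0 gave 2 in HC minus MC (24.5% of all genes), as did quantile normalization (24.4%). The causes were not tested. With the replicate number as a block the counts were 19 in HC minus LC, 14 in MC minus LC and 21 in the F test, with 7 in HC minus MC, where 32.1%, 39.5%, 55% and 33.2% of all genes were called. Whether the numbers pair libraries is not in the labels. Deviations of same-numbered libraries correlated from -0.0759 to 0.504 across genes. Libraries of different numbers were not compared, so these values cannot decide it. Median-of-ratios scaling moved the all-gene median in HC minus LC to 0.0046 and split all calls there into 1494 higher and 1329 lower, against 909 and 2030. The split by LC1 over LC3 gave 34 of 40 at 1.5 times and 31 after median-of-ratios scaling, beside 30. With 3 libraries a diet and unknown depth, small changes of genes near 1 FPKM could not be resolved.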
